A study of Montastraea cavernosa with 311 samples.

Results

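The comparison concerns 17 of 311 libraries of the reef coral Montastraea cavernosa: 7 mesophotic and 10 shallow control libraries with the time label 6, spelled out in the labels without a unit. They were chosen by source name and time label alone. The series counted 3' RNA tags, and each value counts tags of 1 isogroup, the transcript cluster that stands for a gene here. The mesophotic group held 5 libraries from the site coded WFGB and 2 from the site coded EFGB, and the shallow group held 5 from each site. Both groups are control colonies of a field experiment that also had transplants, and the labels name no treatment of either. The labels give no age, sex or exact depth, and a tissue sample holds the animal together with its symbiont algae. The design asks how gene expression differs between depths in colonies followed through time, and site was kept as a covariate.

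Reef-building corals live with photosynthetic dinoflagellates, here of the genus Cladocopium, inside the cells of their gut lining, and these algae pass fixed carbon to the host. Mesophotic reefs lie in the dim zone below the shallow reef, where less light reaches the algae. Prey capture and defence in all cnidarians rest on nematocytes, the stinging cells, which discharge venom that includes pore-forming toxins. In bulk tissue, fewer cells of a type and less RNA per cell cannot be told apart.

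Host counts per library ran from 20888 to 977746 in mesophotic libraries (median 230869) and from 20931 to 432971 in shallow libraries (median 309230). Counts were found for 1384 to 4092 of the 17901 host isogroups in mesophotic libraries (median 2684) and for 1279 to 5431 in shallow libraries (median 1485). Symbiont isogroups held a median share of 4.49% of a library in mesophotic libraries and 3.37% in shallow libraries. In exact two-sided permutation tests of depth within sites, these 3 measures had unadjusted p-values of 0.833, 0.315 and 0.897, and an adjusted p of 0.897 for each. The differences, mesophotic minus shallow, were 0.14 ± 0.84 in log2 host total, 0.36 ± 0.35 in log2 detected isogroups and -0.06 ± 0.41 in log2 odds of a symbiont count (SE).

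A set of 4 libraries stood apart before any comparison of depth, namely WFGB mesophotic replicates 3 and 4 and WFGB shallow replicates 1 and 5. Their host totals were 41341, 20888, 48858 and 20931, all under 100000, yet each had counts for 3495 to 5431 isogroups, more than any of the other 13 libraries. That is 5.11 to 11.8 counts per detected isogroup, against 81.9 to 432 in the other 13, which had 219884 to 977746 host counts and 1279 to 2892 detected isogroups. Log2 CPM (counts scaled to 1 fixed host total per library) of pairs among the 4 had a median Pearson r of 0.62 across isogroups, while pairs of 1 of them with 1 of the other 13 had a median of 0.19. Between a mesophotic and a shallow library the median r was 0.30, beside 0.32 among mesophotic and 0.34 among shallow libraries. Each group holds 2 of the 4, and all 4 come from WFGB, so results are given with all 17 libraries and, where the filter on low counts allowed a fit, in the other 13.

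**Figure D1:**
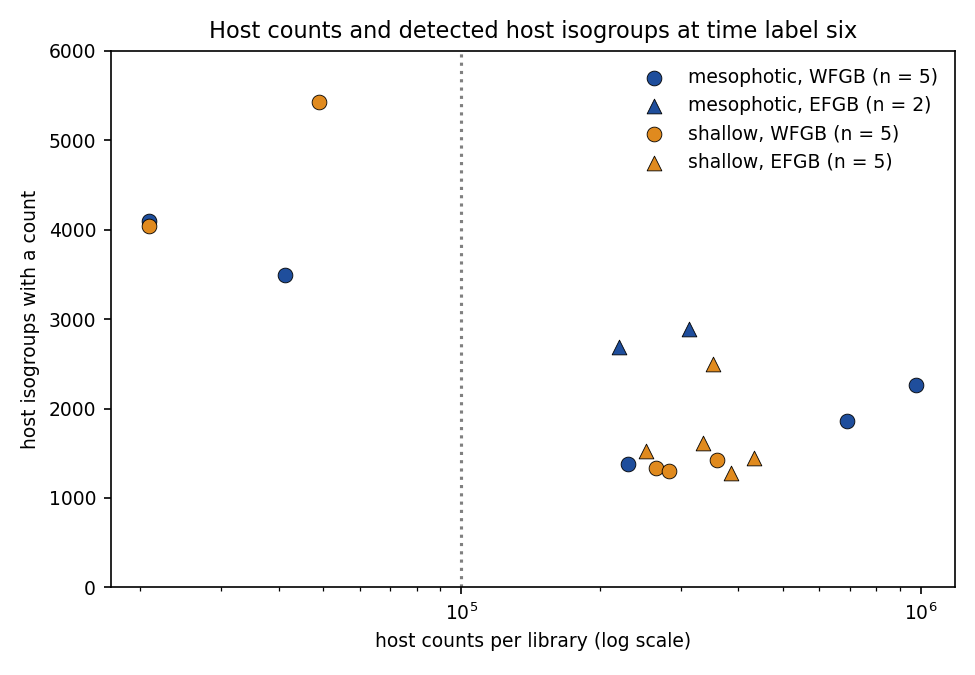
Host counts per library (x axis, log scale) and number of host isogroups with at least 1 count (y axis) in the 7 mesophotic (blue) and 10 shallow (orange) libraries, with circles for WFGB and triangles for EFGB. The 4 WFGB libraries left of the dotted line at 100000 host counts have the most detected isogroups, and each depth has 2 of them.

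No host isogroup passed an adjusted p of 0.05 between mesophotic and shallow colonies. With edgeR's quasi-likelihood test and Benjamini-Hochberg adjustment, 0 of 979 isogroups tested were called (0%), and the lowest adjusted p was 0.83. At an unadjusted p under 0.05 there were 40 isogroups (4.09%), 23 with a positive (2.35%) and 17 with a negative (1.74%) log2 fold (mesophotic minus shallow throughout). limma called 0 of 6517, with 248 (3.81%) at an unadjusted p under 0.05, of which 226 had a positive and 22 a negative fold. DESeq2 called 18 of 979 (1.84%), 11 with a positive and 7 with a negative fold. The 979 include 230 isogroups without an adjusted p, which could not be called. With DESeq2, 113 isogroups had an unadjusted p under 0.05, beside 40 of the same 979 with edgeR. With all control and transplant libraries of both times in 1 edgeR fit, which then share 1 estimate of the spread, 86 of 4052 were called, 71 higher and 15 lower in mesophotic libraries (2.12%). That fit had no colony term and treated libraries of the same colony at both times as independent. No isogroup of the 979 had CPM ranges that did not overlap between the groups.

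The precision of the comparison differed widely with abundance. The median SE of a log2 fold was 1.69 over the 979 isogroups and 0.76 over the 50 most abundant, of which 46 had counts in all 17 libraries. Of all 979, 163 had counts in every library. The median log2 fold was 0.21 over all and -0.04 over the 50 most abundant. The median over all was 0.05 with DESeq2-type size factors (RLE) in edgeR and 0.38 with scaling by host totals alone, so folds carry an offset of this size that depends on the scaling.

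**Figure D2:**
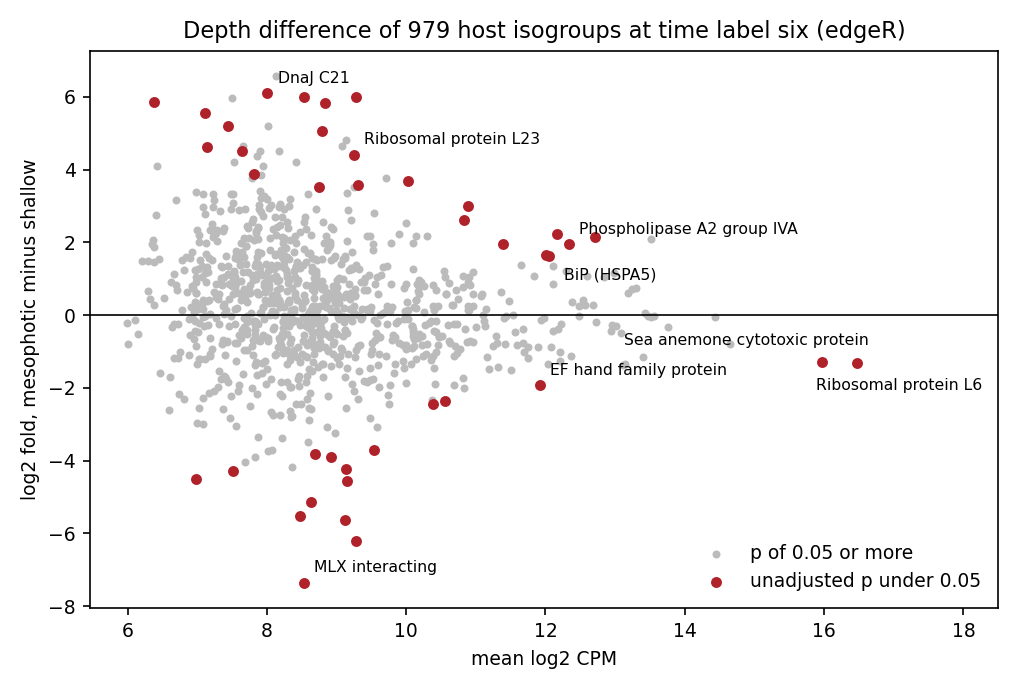
Log2 fold (mesophotic minus shallow, y axis) against mean log2 CPM (x axis) of the 979 host isogroups tested. Red points are the 40 isogroups at an unadjusted p under 0.05, and none passes the adjusted threshold; large folds sit at low abundance, and the 2 most abundant isogroups lie at -1.29 and -1.32.

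The 2 most abundant host isogroups, ribosomal protein L6 and a sea anemone cytotoxic protein, had smaller shares of host counts in most mesophotic libraries. Ribosomal protein L6 (Mcavernosa17045) is a protein of the large ribosomal subunit. It had 22645 to 71981 CPM in mesophotic libraries (median 33169) and 8743 to 174239 CPM in shallow libraries (median 92199). The 5 highest values, 116038 CPM or more, were all from shallow libraries, the ranges overlapped, and the 2 lowest values belonged to WFGB shallow replicates 5 and 1, which are among the 4 libraries under 100000 counts. The means were 42456 ± 19500 CPM in mesophotic and 86604 ± 57608 CPM in shallow libraries (SD, n = 7 and 10). The log2 fold was -1.32 ± 0.55 (SE, edgeR unadjusted p = 0.0182, adjusted p = 0.997).

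In the 13 libraries with at least 100000 host counts, L6 passed the test. Mcavernosa17045 then had 30016 to 71981 CPM in 5 mesophotic libraries (median 43986) and 28799 to 174239 CPM in 8 shallow libraries (median 116897), with a log2 fold of -1.47 ± 0.34 and an edgeR adjusted p of 0.0309. Only EFGB shallow replicate 2, at 28799 CPM, and no other shallow library lay below all 5 mesophotic ones. In all 17 libraries again, the fold was -1.47 with barcode run, an inferred library batch, as a covariate (edgeR adjusted p = 0.996), and in parts of the 17 it was -1.77 within run 11 (0.999), -1.27 at WFGB alone (0.999) and -1.56 at EFGB alone (0.463). When the log2 detected isogroup number entered the model of the 17 libraries it was -0.35 in edgeR (adjusted p = 0.995) and -0.12 in limma (0.93).

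The sea anemone cytotoxic protein (Mcavernosa18854) carries the name of a family of pore-forming toxins known from sea anemones, and it is the sole member with counts of the 7 isogroups in the nematocyte list. It had 13812 to 35219 CPM in mesophotic libraries (median 24790) and 2251 to 153395 CPM in shallow libraries (median 44409). In all, 7 shallow libraries exceeded every mesophotic one, and the lowest values were again those of WFGB shallow replicates 1 and 5, at 2251 and 4682 CPM. The log2 fold was -1.29 ± 0.62 (edgeR unadjusted p = 0.0395, adjusted p = 0.997). In the 13 libraries with at least 100000 host counts it was -1.87 ± 0.42 (edgeR adjusted p = 0.0309), with 13812 to 32512 CPM in mesophotic and 21255 to 153395 CPM in shallow libraries. In all 17 libraries it was 0.11 in edgeR and 0.16 in limma once the detected isogroup number entered the model, which turns its direction.

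These were the only 2 of 824 isogroups called in the 13 libraries (0.243%), and 47 had an unadjusted p under 0.05. Mcavernosa17045 and Mcavernosa18854 together took 3.66% to 10.4% of host counts in mesophotic libraries (median 6.4%) and 1.34% to 25.3% in shallow libraries (median 16.7%). Among the 13, the sum ran from 4.43% to 10.4% in mesophotic and from 10.5% to 25.3% in shallow libraries, which do not overlap; the sum was formed after the values were seen and has no test. A larger share of 1 isogroup lowers the CPM of all others in the same library.

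The other ribosomal proteins together, whose share of host counts overlapped between depths, included members with folds of either sign. Without L6, the list of 117 isogroups summed to 4.66% to 9.19% of host counts in mesophotic libraries (median 7.28%) and 4.61% to 7.63% in shallow libraries (median 5.97%). Of 51 members tested, L6 included, 32 had a positive fold and none was called. Their median log2 fold was 0.27 beside 0.21 over all isogroups tested. Ribosomal protein L23 (Mcavernosa00265), also of the large subunit, had 0 to 1880 CPM in mesophotic libraries (median 1020) and 0 to 553 CPM in shallow libraries (median 6.37). All mesophotic libraries but WFGB replicate 1, which had no count, lay above 300 CPM, and among shallow libraries so did WFGB replicates 1 and 5 alone, both of few host counts. Its log2 fold was 4.41 ± 1.73 (edgeR adjusted p = 0.986, DESeq2 adjusted p = 0.0435). L38 (Mcavernosa32279) had counts in 3 mesophotic and 6 shallow libraries. The L38 fold was -5.13 ± 2.04 (edgeR adjusted p = 0.986) and -5.91 in DESeq2 (adjusted p = 0.0465). L23 passed the filter on low counts mainly through mesophotic libraries and L38 mainly through shallow ones. The p-values of both therefore add no support.

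**Figure D3:**
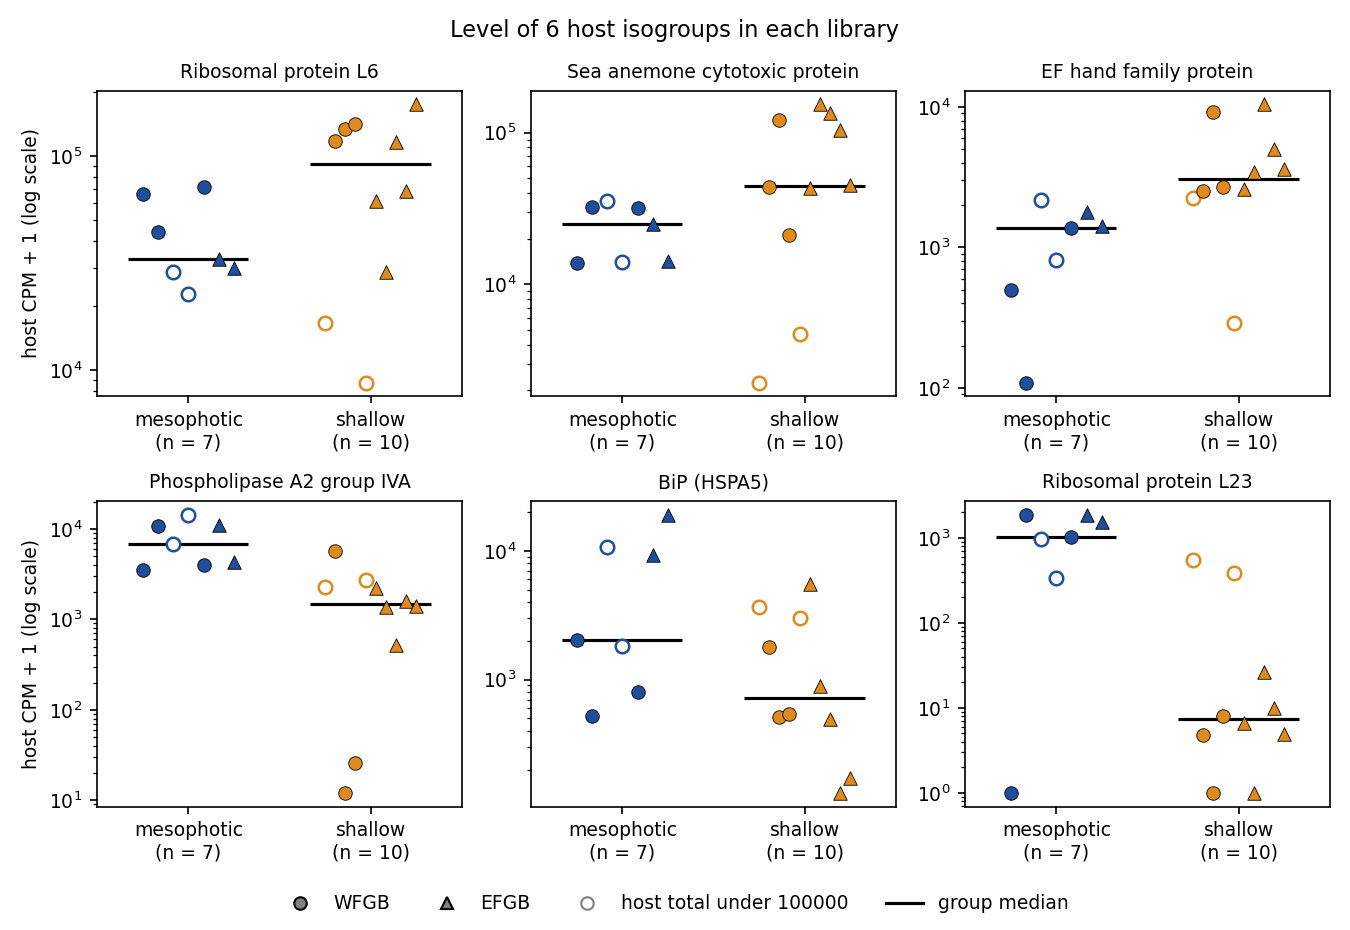
CPM plus 1 (y axis, log scale) of 6 host isogroups in each library, with mesophotic libraries (n = 7) left of shallow libraries (n = 10), circles for WFGB, triangles for EFGB, open symbols for the 4 libraries under 100000 host counts and lines for group medians. Filled symbols of ribosomal protein L6, the cytotoxic protein and the EF hand family protein lie mostly lower in mesophotic libraries, and those of phospholipase A2 mostly higher, while no panel separates all 17 libraries.

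Among isogroups of lipid metabolism, a cytosolic phospholipase A2 of group IVA (Mcavernosa22551) had more CPM in nearly all mesophotic than shallow libraries, without passing the adjusted threshold. In mammals this calcium-dependent enzyme frees arachidonic acid from membranes, the first step toward eicosanoids. It had 3504 to 14362 CPM in mesophotic libraries (median 6749) and 11.1 to 5647 CPM in shallow libraries (median 1491). Every mesophotic library exceeded every shallow one other than WFGB shallow replicate 2, which lay above 3 mesophotic libraries. The means were 7824 ± 4254 CPM in mesophotic and 1777 ± 1648 CPM in shallow libraries (SD, n = 7 and 10), and the log2 fold was 1.95 ± 0.76 (edgeR unadjusted p = 0.0124, adjusted p = 0.986). Its fold was 1.60 to 2.45 when single libraries were left out and 2.00 in the 13 libraries with at least 100000 host counts (edgeR adjusted p = 0.685).

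A calcium-binding EF hand family protein (Mcavernosa24535) had 108 to 2177 CPM in mesophotic libraries (median 1375) and 287 to 10444 CPM in shallow libraries (median 3072). Of 10 shallow libraries, 9 exceeded all 7 mesophotic ones, and the exception, WFGB shallow replicate 5 at 287 CPM, had few host counts. Its log2 fold was -1.93 ± 0.83 (edgeR unadjusted p = 0.0224, adjusted p = 0.997), and DESeq2 gave -2.43 with an adjusted p of 0.0489. In the 13 libraries with at least 100000 host counts the ranges did not overlap, at 108 to 1797 CPM in 5 mesophotic and 2529 to 10444 CPM in 8 shallow libraries, with a fold of -2.41 ± 0.74 (edgeR adjusted p = 0.338). Only 1 other of the 824 isogroups tested there, named calsyntenin (Mcavernosa12659), had ranges apart, with 212 to 2473 CPM in mesophotic and 0 to 14.2 CPM in shallow libraries; together they are 0.243% of the 824. Calsyntenin passed the filter on low counts through its mesophotic libraries, and its ranges are given as values alone.

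Chaperones gave 3 of the isogroups at an unadjusted p under 0.05, all with positive folds, of 22 tested in the list of heat shock proteins and chaperones (4.09% over all isogroups), and none was called; among the 13 libraries it was 2 of 20 (5.7% over all). BiP (Mcavernosa18764, heat shock 70kDa protein 5), the Hsp70 of the endoplasmic reticulum, had 524 to 19074 CPM in mesophotic libraries (median 2042) and 131 to 5561 CPM in shallow libraries (median 713). Its 2 highest values outside the 4 libraries of few counts were both EFGB mesophotic libraries, at 19074 and 9317 CPM, and the groups overlapped broadly. The log2 fold was 1.62 ± 0.80 (edgeR unadjusted p = 0.0465, adjusted p = 0.997) and 1.86 ± 0.82 in the 13 libraries with at least 100000 host counts (adjusted p = 0.785). DnaJ homolog C21 (Mcavernosa18454), a co-chaperone tied to ribosome assembly in human cells, had counts in 6 of 7 mesophotic libraries (0 to 1689 CPM, median 287) and in 2 of 10 shallow ones (0 to 143 CPM, median 0). Both shallow libraries with counts were WFGB replicates 1 and 5. The fold of DnaJ C21 was 6.10 ± 2.06 (edgeR adjusted p = 0.986, DESeq2 adjusted p = 0.0161). It passed the filter on low counts mainly through its mesophotic libraries, so these p-values add no support. A further Hsp70 (Mcavernosa26318) had a fitted fold of 3.68 ± 1.75 although its mean CPM was 882 ± 528 in mesophotic and 769 ± 875 in shallow libraries.

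The remaining chaperones had folds of both signs, and cytosolic Hsp90 (Mcavernosa01595) had 2312 ± 1104 CPM in mesophotic and 2322 ± 1368 CPM in shallow libraries. Its log2 fold was -0.01 ± 0.88. Of the 22 chaperones tested, 13 had a positive fold, with a median of 0.47 over the list beside 0.21 over all isogroups. The median of the 20 members tested was -0.03, beside 0.13 over all, in the 13 libraries with at least 100000 host counts.

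Several isogroups at an unadjusted p under 0.05 were mostly without counts in 1 of the groups. MLX interacting (Mcavernosa07471), the name of a glucose-sensing transcription factor in mammals, had the smallest p of all. It had 3.20 CPM in EFGB mesophotic replicate 1 and 0 in the other 6 mesophotic libraries, against 488 to 1148 CPM in all 5 EFGB shallow libraries and 0 to 94.4 CPM at WFGB. Its log2 fold was -7.35 ± 2.18 (edgeR unadjusted p = 0.00115, adjusted p = 0.83, DESeq2 adjusted p = 0.00234), and the counts that carry it are those of the EFGB shallow colonies. MLX interacting passed the filter on low counts through its shallow libraries alone, so these p-values add no support. An oxysterol-binding protein (Mcavernosa19730), of a family that moves sterols and lipids between membranes, had 0 to 144 CPM in mesophotic libraries (median 0) and 0 to 1515 CPM in shallow libraries (median 289), with a fold of -5.52 ± 2.20 (edgeR adjusted p = 0.986) and -6.88 in DESeq2 (adjusted p = 0.00179). The shallow libraries were enough to carry it past the filter on low counts, so its p-values add no support either.

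Among positive folds of the same kind, peptidyl-tRNA hydrolase (Mcavernosa19502), which frees tRNA from stalled peptides, had counts in 6 mesophotic libraries (0 to 285 CPM) and in 5 shallow ones, all from EFGB (5.96 to 41.6 CPM), with a fold of 5.86 ± 2.28. A coiled-coil protein (Mcavernosa21005, CCDC64B) had 57.3 to 10646 CPM in mesophotic libraries (median 718) and 0 to 1517 CPM in shallow libraries (median 117). Its highest values were the EFGB mesophotic libraries at 10646 and 7309 CPM, and the fold was 2.61 ± 1.05 (edgeR unadjusted p = 0.0151, adjusted p = 0.986). In the 13 libraries with at least 100000 host counts the log2 folds were 3.90 ± 1.08 for CCDC64B, 5.88 ± 2.60 for peptidyl-tRNA hydrolase, -7.88 ± 2.61 for MLX interacting (Mcavernosa07471) and -9.36 ± 3.02 for the oxysterol-binding protein (Mcavernosa19730), with edgeR adjusted p-values of 0.216 to 0.785. DnaJ C21, L23 and L38 had too few counts to be fitted there.

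The 18 isogroups called by DESeq2 had counts in 8 to 17 of the 17 libraries. Of the 18, 17 had an edgeR unadjusted p under 0.05, which comes from the same counts and filter and adds no support. All CPM ranges of the 18 overlapped between depths. The largest positive DESeq2 folds among named ones beside DnaJ C21 belonged to a vacuolar protein sorting 13 homolog (Mcavernosa28237), of a family that carries lipids between membranes, at 6.31, and to a member of the NF-E2-like transcription factors (Mcavernosa03958) at 5.02 (adjusted p = 0.0161 and 0.0435). A single library holds 57.8% of the summed CPM of Mcavernosa28237. DESeq2 gave no adjusted p for 230 of the 979 isogroups.

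Gene lists, matched by words in the gene names, held no called member at either depth in the comparison of the 17 libraries. Innate immunity had the highest median of the lists with at least 5 members tested, 1.52 over 7 members, of which 6 had positive folds. An interferon regulatory factor 2 binding protein (Mcavernosa07301) had 5773 ± 2773 CPM in mesophotic and 1660 ± 1132 CPM in shallow libraries (log2 fold 1.66 ± 0.77, edgeR unadjusted p = 0.034), and a TNF receptor-associated factor (Mcavernosa11801), an adaptor of immune receptors, 718 ± 658 and 89.1 ± 143 CPM (fold 3.54 ± 1.73). The most abundant member, a complement component (Mcavernosa23257), had 3552 ± 1284 CPM in mesophotic and 3999 ± 3568 CPM in shallow libraries and a fold of -0.24 ± 0.73. Over the 59 members that limma could test, the median was 0.14 beside 0.11 for all isogroups tested by limma. With edgeR in the 13 libraries with at least 100000 host counts, the median was 1.64 beside 0.13 over all isogroups tested there, with all 7 folds positive.

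Apoptosis and autophagy had a median log2 fold of 1.18 over 6 members, none at an unadjusted p under 0.05, and 0.17 over 44 members with limma. Programmed cell death 4 (Mcavernosa09162) had 1261 ± 1696 CPM in mesophotic and 309 ± 261 CPM in shallow libraries (fold 1.97 ± 1.38). Lipid and sterol metabolism had a median of 0.66 over 22 members, 14 of them positive. Its summed level was 15815 to 38438 CPM in mesophotic libraries (median 28964) and 9132 to 26850 CPM in shallow libraries (median 12765), and the 2 highest shallow sums were those of WFGB replicates 1 and 5. In the 13 libraries with at least 100000 host counts the sums did not overlap and have no test. They were 15815 to 38438 CPM in mesophotic and 9132 to 14335 CPM in shallow libraries. Of all the gene lists matched, only this list had sums apart there, so the separation is a pick among many lists. Phospholipase A2 (Mcavernosa22551) and an alpha/beta-hydrolase lipase (Mcavernosa17996; 9151 ± 8947 CPM in mesophotic and 4079 ± 4929 CPM in shallow libraries, fold 1.06 ± 0.73) are the 2 most abundant members of that sum.

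Lists tied to energy and light held few measured members. Oxidative phosphorylation, the respiratory chain of the mitochondrion, had 3 positive folds of 11 and a median of -0.30, and -0.83 over 10 members in the 13 deeper libraries. Its most abundant member, a cytochrome c oxidase subunit (Mcavernosa30572), had 1628 to 39174 CPM in mesophotic and 645 to 19964 CPM in shallow libraries, with a fold of 0.76 ± 0.66. That fold was -0.068 without WFGB mesophotic replicate 2, the library with 39174 CPM. No isogroup name matched fluorescent proteins, the green and red pigments of corals, so they were not analysed here. Both cryptochromes tested, blue-light receptors and clock proteins, had an unadjusted p above 0.05, with folds of 1.05 ± 2.09 (Mcavernosa01532) and 3.34 ± 2.43 (Mcavernosa10901).

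Antioxidants had a median of 0.05 over 9 members (0.26 over 8 in the 13 deeper libraries), and 1 of them, a methionine sulfoxide reductase (Mcavernosa03516), which repairs oxidised methionine, had an unadjusted p under 0.05. It had 0 to 1566 CPM in mesophotic libraries (median 191) and 47.8 to 5839 CPM in shallow libraries (median 1019), with a fold of -2.36 ± 1.14 (edgeR unadjusted p = 0.0427, adjusted p = 0.997). Calcification had a single member tested, a bicarbonate transporter of solute carrier family 4 (Mcavernosa16909), at 772 ± 742 CPM in mesophotic and 652 ± 643 CPM in shallow libraries. Of the genes of exchange with the symbiont, 3 were tested: an ammonium transporter (Mcavernosa08187) at 135 ± 169 and 58.8 ± 120 CPM, an aquaporin (Mcavernosa29857) at 152 ± 153 and 707 ± 711 CPM, and a sugar carrier of family 2 (Mcavernosa02048) at 45.7 ± 52.1 and 99.4 ± 131 CPM in mesophotic and shallow libraries. None of these had an unadjusted p under 0.05.

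Cell marker lists of muscle and actin, cilia, neurons, mucus and gland cells and germ line had 14, 10, 4, 2 and 5 members tested and none at an unadjusted p under 0.05. Their summed levels overlapped between depths, for muscle and actin with 7949 to 14793 CPM in mesophotic and 6146 to 20198 CPM in shallow libraries. Mucus and gland cell markers summed to 17.3 to 2298 CPM in mesophotic and 484 to 5277 CPM in shallow libraries. Chymotrypsin-like (Mcavernosa20219), a digestive protease, had 468 ± 499 CPM in mesophotic and 1506 ± 1459 CPM in shallow libraries (fold -0.83 ± 1.22), and 0.89 without WFGB shallow replicate 3. Whether cell makeup had a part in any difference above was not tested.

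**Figure D4:**
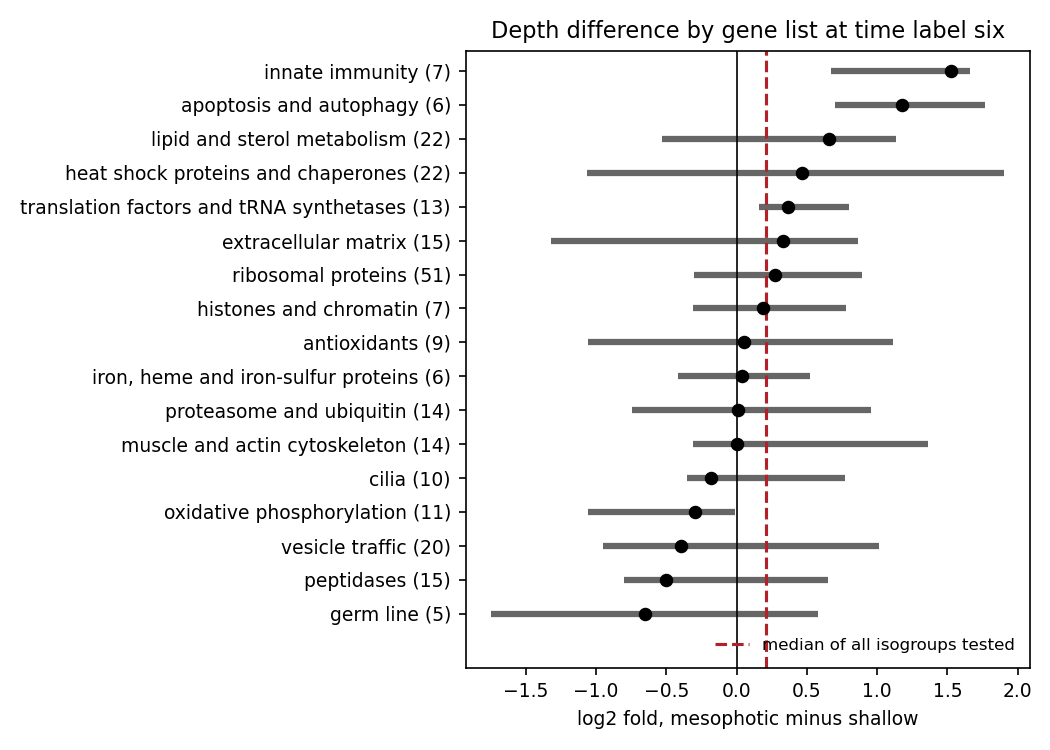
Median log2 fold (points; mesophotic minus shallow) and interquartile range (bars) of the gene lists with at least 5 members tested, with the number tested in parentheses. The dashed line is the median of all 979 isogroups, 0.21; innate immunity lies farthest to the right at 1.52 and germ line farthest to the left at -0.65, and no list has a called member.

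The depth difference was then compared between the sites. The test of depth by site (EFGB minus WFGB) called 0 of 3838 isogroups with edgeR (0%), with a lowest adjusted p of 0.059 and 597 (15.6%) at an unadjusted p under 0.05. Of the 597, 448 had a positive and 149 a negative difference. The filter on low counts was set here by the smallest group, the 2 EFGB mesophotic libraries. Isogroups could enter through those alone, so the 597 add no support for a difference between sites. The number of calls depended on single libraries and was 74 without WFGB shallow replicate 3. The number at an unadjusted p under 0.05 was 255 (5.88%) without EFGB mesophotic replicate 1 and 325 (7.32%) without EFGB mesophotic replicate 2. At EFGB alone, with 2 mesophotic and 5 shallow libraries, edgeR called 7 of 1648 isogroups (0.425%), with 4 positive and 3 negative log2 folds, and at WFGB alone 0 of 997 (0%), with 17 at an unadjusted p under 0.05.

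The calls at EFGB rest on 2 mesophotic libraries, and 3 of the 7 isogroups have no name. The smallest p was that of Mcavernosa23221, one of these, with 3443 to 31280 CPM in EFGB mesophotic and 431 to 2626 CPM in EFGB shallow libraries (log2 fold 3.90 ± 0.62, edgeR adjusted p = 1.55e-05). The lipase Mcavernosa17996 had 10714 to 27096 CPM in EFGB mesophotic and 712 to 4041 CPM in EFGB shallow libraries (log2 fold 3.10 ± 0.55, adjusted p = 0.000144). An Hsp70 (Mcavernosa22428) had 5586 to 11479 CPM in EFGB mesophotic and 182 to 2239 CPM in EFGB shallow libraries (3.13 ± 0.77, adjusted p = 0.0298). Thioredoxin (Mcavernosa14272), a redox protein, had 1228 to 1502 CPM in EFGB mesophotic libraries and no count in any EFGB shallow library (edgeR adjusted p = 0.0457); it entered the test through the mesophotic libraries alone, so its call adds no support. An isogroup named RAB (Mcavernosa20310), the name of small GTPases of vesicle traffic, had 330 to 1574 CPM in EFGB mesophotic and 4279 to 17666 CPM in EFGB shallow libraries (-3.64 ± 0.69, adjusted p = 0.000334). At WFGB the lipase had 845 to 12651 CPM in 5 mesophotic and 911 to 13903 CPM in 5 shallow libraries, and its difference between sites had an unadjusted p of 0.0808. Both EFGB mesophotic libraries came from barcode run 12. None of the shallow libraries compared here came from that run, so at EFGB depth and run cannot be told apart. At WFGB the titles date the mesophotic samples a day before the shallow ones, so day and depth cannot be told apart there.

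The same contrast was computed in 3 further sets of libraries. At time label 12, with 6 mesophotic and 9 shallow control libraries, edgeR called 0 of 891 isogroups (0%), and 17 had an unadjusted p under 0.05. In the baseline libraries of the same colonies (7 mesophotic and 9 shallow), tied by tags in the titles, it called 0 of 695 (0%), and 22 had an unadjusted p under 0.05. In other natural colonies of both sites (34 mesophotic and 65 shallow), 86 of 1140 were called (7.54%), 77 higher and 9 lower in mesophotic libraries. That balance turned with the processing: limma called 35 higher and 846 lower, edgeR without a filter 1778 higher and 3306 lower, and edgeR with RLE size factors 3 each, with a median log2 fold over all isogroups of -0.28 beside 0.09 with TMM factors. Of the 65 shallow libraries there 47, and none of the mesophotic ones, carry the title date X-14, and without them 2 of 1352 were called (0.148%). A test of depth by time within colonies that had a library at both times, 5 mesophotic and 9 shallow, called 0 of 2590 (0%), with 48 at an unadjusted p under 0.05.

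These sets share colonies with time 6 except for the other natural colonies, and their folds stood beside those at time 6 as follows. L6 (Mcavernosa17045) had log2 folds of 0.37 ± 0.41 at baseline, -1.32 ± 0.55 at time 6 and -0.56 ± 0.47 at time 12, and 1.29 ± 0.28 in the other natural colonies (edgeR adjusted p = 0.00203), the opposite sign. In those colonies the whole ribosomal list, L6 included, had a median of 0.87, beside 0.09 over all isogroups tested. There, 47 of 65 shallow and no mesophotic libraries carry the date X-14. Date and depth are therefore partly confounded in every fold given for them. The cytotoxic protein (Mcavernosa18854) had 1.34 ± 0.47 at baseline (edgeR unadjusted p = 0.00739, adjusted p = 0.997). It had -1.29 ± 0.62 at time 6, -0.26 ± 0.72 at time 12 and 0.35 ± 0.39 in the other natural colonies. The change from baseline to time 6 was not tested. The EF hand family protein (Mcavernosa24535) kept a negative sign at all 3 times. It had -0.61 ± 0.64 at baseline, -1.93 ± 0.83 at time 6 and -1.58 ± 0.75 at time 12. The edgeR p-values at time 12 were 0.0411 unadjusted and 0.999 adjusted. In the other colonies it had 0.90 ± 0.29 (edgeR adjusted p = 0.0354). Phospholipase A2 (Mcavernosa22551) had 0.18 ± 0.41 at baseline, 1.95 ± 0.76 at time 6, 0.20 ± 0.55 at time 12 and 0.09 ± 0.26 in the other colonies, and its change from time 6 to 12 within colonies, mesophotic minus shallow, was -2.79 (edgeR unadjusted p = 0.0129, adjusted p = 1). Phospholipase A2 was named for its small p at time 6, and the same time 6 values enter this change. That selection favours a negative change, so its p-value adds no support.

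**Figure D5:**
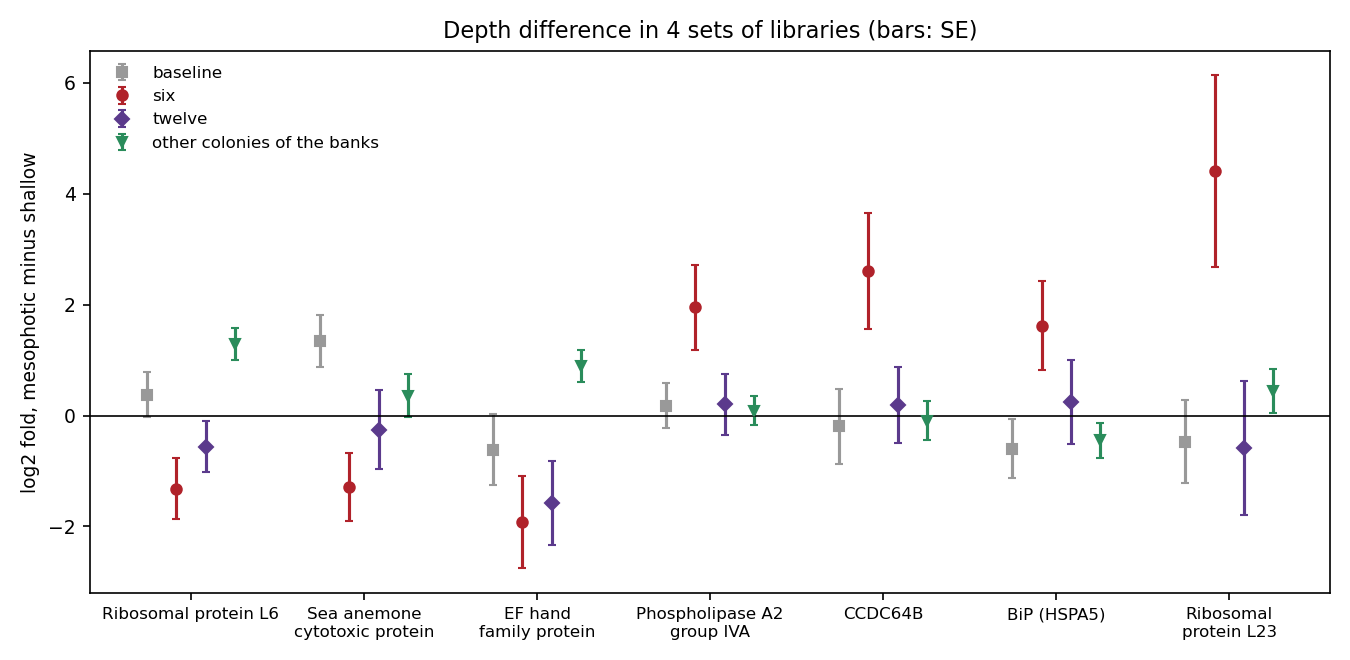
Log2 fold, mesophotic minus shallow (y axis, points, with SE bars), of 7 host isogroups in the baseline libraries, at time 6, at time 12 and in other natural colonies of both sites. Ribosomal protein L6 lies at -1.32 at time 6 and at 1.29 in the other colonies, and the EF hand family protein is below 0 at baseline, time 6 and time 12. In the other colonies depth and title date are partly confounded.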

How the data were processed

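Tag libraries of coral tissue were compared by depth at time label 6, as counts. The authors deposited raw read counts, with the isogroups of host and symbiont, 31276 in all, in a single table, with a lookup table that pairs isogroups with gene names, and 12005 of the 17901 host isogroups have one. No aligner, read filter, duplicate removal or reference build is given in the sources used here. Of the deposited columns, 1 has no name and no values and was not used. All 311 libraries were matched to their columns by description.

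Host counts were scaled within the host total, and libraries under 20000 host counts would have been left out, which removed none of the 17. Robust quasi-likelihood models were fitted in edgeR 4.0.16 under R 4.3.3 with TMM factors, filterByExpr by depth and site as a covariate, with Benjamini-Hochberg adjustment and a threshold of 0.05. For depth by site and depth by time, filterByExpr used the combinations of depth with site or with time. The SE of an edgeR fold is its size divided by the square root of F and is approximate. limma 3.58.1 (log2 CPM, prior count 2, isogroups with counts in at least 10% of libraries) and DESeq2 1.42.0 were alternatives. Library measures had exact two-sided permutation tests over 5292 arrangements within sites, which allow no p below 0.000189. The methods were also run on simulated counts with 1 mean profile for all libraries and no site effect. That setting lacks the 4 libraries that stood apart here, so it gives no support for the results above. Replicate numbers follow accession order, and title tags were read as colonies, so p-values measure the spread between these libraries. Barcode runs are stretches of library numbers in which no barcode pair repeats. Depth per library sets the precision, and no intervals are given for single libraries, since the handling of duplicates is unknown here.

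The members and lists were chosen with earlier results of these data known. With no isogroup past the threshold, the rule named the 5 smallest p-values in each direction among named isogroups with counts in at least 4 libraries and no library holding over 50% of the summed CPM. The most abundant named isogroups, the most abundant member of each of 15 lists, the isogroups called in other fits and those at an unadjusted p under 0.05 in a list were added after the values had been seen. The word patterns of the 26 lists were corrected after a first match had hit unrelated words.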

Additional observations from a re-analysis of the deposited data

Results flagged for a closer look

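Within the groups of 7 and 10 libraries, single libraries lay far from the rest of their group, by the gap to the nearest library relative to the group's range on the log2 CPM scale, for 7 of 64 combinations of a depth with a named isogroup or library measure. Chance gives such a gap in about 5% of groups of normally distributed values. Groups with zeros tied at the floor, such as MLX interacting in mesophotic libraries, are not of that kind. The 7 of 64 therefore cannot be read against the 5%. Among mesophotic libraries, ribosomal protein L23 (Mcavernosa00265) was at 0 CPM in WFGB replicate 1, and MLX interacting (Mcavernosa07471) was at 3.20 CPM in EFGB replicate 1, the single mesophotic library with a count. The iron storage protein Mcavernosa17017 was at 957 CPM in WFGB mesophotic replicate 4, and a complement component (Mcavernosa23257) was at 959 CPM in WFGB mesophotic replicate 5.

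Among shallow libraries, WFGB replicate 4 had 10.6 CPM of Mcavernosa23221, an isogroup without a name, and 7.07 CPM of GABA(A) receptor-associated protein-like 2 (Mcavernosa27195), a protein of autophagy, whose log2 fold over the 17 libraries was -0.27 ± 1.07. WFGB shallow replicate 5, with 20931 host counts, had 287 CPM of the EF hand family protein (Mcavernosa24535). The part of single libraries in these values was not tested beyond leaving each out.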

How the results depend on the processing

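The count of called isogroups at time 6, 0 with edgeR on the 17 libraries, was 18 with DESeq2, 2 in libraries of at least 100000 host counts, 86 with all control and transplant libraries in the fit and 7 at EFGB alone. It was 0 under the other 13 alternatives and without any single library. Of these 13, the fit without a minimum host total repeats the main fit, since the minimum removed no library. The count for depth by site, 0, was 2 with RLE size factors and 0 to 74 when single libraries were left out. In the other natural colonies the 86 calls became 6 with RLE, 881 with limma, 5084 without a filter and 2 without X-14. At time 12 and for depth by time it remained 0 in every alternative run. The differences in log2 host total and in log2 odds of symbiont counts changed sign among single omissions, with ranges of -0.27 to 0.58 and -0.29 to 0.21. No paired analysis was possible because mesophotic and shallow colonies are different colonies and replicate numbers follow accession order.

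Of 484 values of 29 isogroups under processing alternatives, 432 kept direction and side of the threshold, 10 passed it and 42 changed sign. The 432 include the fit without a minimum host total, which repeats the main fit for each isogroup. Of 484 values with 1 library left out, 20 changed sign. Sign changes by isogroup follow as log2 folds. Mcavernosa26831 (C/EBP alpha, -0.05) had 0.36 at 100000 host counts, 0.67 with all libraries, 0.017 with host totals, 0.35 without a filter, 0.26 with counts in 9 libraries, 0.025 with limma, 0.10 with barcode run, 0.48 at WFGB and -0.31 to 0.39 leaving out single libraries. Mcavernosa09208 (ribosomal, -0.03) had 0.29 with all libraries, 0.12 at EFGB, 0.11 and 0.32 with detected isogroups (edgeR, limma), 0.22 with host totals, 0.13 without a filter, 0.23 with limma, 0.085 in run 11 and -0.30 to 0.10 leaving out single libraries. Mcavernosa23257 (complement) had 0.23 at 100000, 0.0095 with all libraries, 1.11 at EFGB and 0.11 with limma. Mcavernosa16909 (solute carrier 4) had 0.10 with all libraries, 0.87 with detected isogroups in limma, 0.050 with host totals, 0.96 with limma, 0.023 with barcode run, 1.02 in run 11, 0.040 without site and -0.90 to 0.10 leaving out single libraries. Mcavernosa27195 had 0.014 with all libraries, 0.42 with detected isogroups in limma and 0.38 with limma. Mcavernosa17017 had 0.35 and 0.64 with detected isogroups and 0.054 with limma, and Mcavernosa18854 had 0.11 and 0.16 with detected isogroups. Mcavernosa22658 (tropomyosin) had 0.41 with barcode run, 0.77 in run 11 and -1.36 to 0.21 leaving out single libraries. Mcavernosa33295 (no name) had -0.69 with barcode run, -0.76 at WFGB and -0.30 in run 11. Mcavernosa08187 had -0.22 at EFGB, Mcavernosa17996 -0.25 at WFGB, Mcavernosa30572 -0.068 to 1.05 and Mcavernosa20219 -1.54 to 0.89 leaving out single libraries. The cause of these changes was not tested.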

Other observations

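Further abundant isogroups had the following levels. An isogroup without a name (Mcavernosa33295) had 396 to 42435 CPM in mesophotic libraries (median 12782) and 11.3 to 39845 CPM in shallow libraries (median 209). Both EFGB mesophotic libraries had at least 23726 CPM and the EFGB shallow libraries at most 2257 CPM, while at WFGB the shallow group held both the lowest and the highest value. Its test of depth by site had an edgeR unadjusted p of 5.83e-05 and an adjusted p of 0.059, which misses the threshold. A second isogroup without a name (Mcavernosa23221), called at EFGB alone, had 1101 to 31280 CPM in mesophotic libraries (median 3443) and 10.6 to 6966 CPM in shallow libraries (median 1513), with a log2 fold of 2.15 ± 0.77 (edgeR unadjusted p = 0.00681, adjusted p = 0.986). Both were picked after their values had been seen.

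C/EBP alpha (Mcavernosa26831), a transcription factor tied to fat storage and differentiation in mammals, was at 17490 ± 11701 CPM in mesophotic and 17427 ± 10140 CPM in shallow libraries (SD, n = 7 and 10). An iron storage protein annotated like ferritin (Mcavernosa17017) was at 5990 ± 3163 CPM in mesophotic and 6950 ± 4533 CPM in shallow libraries, with a log2 fold of -0.50 ± 0.68. A member of the RAS oncogene family (Mcavernosa26196) was at 3957 ± 3531 CPM in mesophotic and 8421 ± 4564 CPM in shallow libraries (-1.38 ± 0.71, edgeR adjusted p = 0.997). Tropomyosin (Mcavernosa22658), the actin-bound muscle protein, was at 806 ± 537 CPM in mesophotic and 2538 ± 2863 CPM in shallow libraries (-0.86 ± 0.98).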
